A study of Mus musculus with 8 samples.

Results

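Classical monocytes were examined among CD45.2-positive cells sorted from the brain. They were chosen from the UMI counts of each barcode, where a UMI (unique molecular identifier) marks 1 captured transcript. A barcode was counted when it held at least 2 UMIs of Ly6c2, at least 1 of Ccr2 and 1 of Csf1r, none of C1qa, Cd3e and Cd79a, and when Elane, Mpo and Prtn3 together made up under 1% of its UMIs. Of 46314 barcodes with 1 hashtag, 1977 met this rule. WT control gave 232 of them, WT acute colitis 78, WT chronic colitis 464 and WT food allergy 256. App NL-G-F control gave 294, acute colitis 176, chronic colitis 198 and food allergy 279. These measured values chose the cells, so the levels of the 9 genes of the rule are given below as a description only.

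All mice were C57BL/6J, 16 weeks old per the labels, and either WT or App NL-G-F knock-in, in which the mouse App gene itself carries the Swedish, Arctic and Beyreuther/Iberian changes and no transgene promoter is used. Control mice drank water alone, acute colitis came from a week of 2% dextran sulfate sodium (DSS) in the water, chronic colitis from 3 cycles in which 5 days of DSS alternated with 5 days of water, and food allergy from sensitization with ovalbumin and alum followed by oral ovalbumin. There were 8 libraries, 1 for each genotype and treatment, made with the 10x Genomics 5′ kit from brain parenchyma after perfusion. The counts of each library list 4 hashtags, which are barcoded antibodies given to separate samples before pooling. No barcode of WT food allergy and App NL-G-F acute colitis was assigned to hashtag 6, so these libraries have 3 hashtag groups each and there are 30 in all. No source says which mouse carried which hashtag, so the barcodes of 1 hashtag in 1 library are called a hashtag group and not a mouse. For App NL-G-F chronic colitis the study names fewer mice than hashtags, and for App NL-G-F acute colitis more than the hashtags found. Hashtag groups of the former may then share a mouse, which would make its p-values too small. A p-value over hashtag groups measures the spread within the libraries, and with 1 library per condition an effect of the library and an effect of the treatment cannot be told apart. Blood leukocytes had been labelled with an injected CD45 antibody, a label that is not in the counts, so monocytes of vessels and of tissue are not separated here.

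Classical, or Ly6C-high, monocytes arise in the bone marrow from myeloid progenitors that still divide, leave it through the chemokine receptor CCR2 and survive on signals through CSF1R. In tissue they can become macrophages or cells with dendritic features that present antigen on MHC class II, and in the blood part of them turns into non-classical monocytes. In the healthy brain they are rare in the parenchyma and more frequent at its borders, and the skull and vertebral marrow are known to supply myeloid cells to those borders.

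The libraries held between 23358325 and 46626411 UMIs in the barcodes kept, and 74.7 to 94.5% of barcodes that passed the filters carried 1 hashtag. Any pair of libraries shared few barcodes, with 63 shared by App NL-G-F control and acute colitis (1.0% of the smaller). The monocytes were deep, with a median of 11865 UMIs. Within each library the hashtag groups fell into 2 sets by 10 immediate-early genes, which respond to stimulation within minutes, in T cells. Their summed level was 722 to 1674 UMIs per 1000000 UMIs (CPM) in 14 hashtag groups, called the low set, and 3179 to 6540 CPM in 16, called the high set. The sets were found from the data and are not groups of the study. Control and chronic colitis had hashtags 6 and 7 in the high set, and acute colitis and food allergy had hashtags 4 and 5. The high set held 1480 of the monocytes and the low set 497.

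The gated cells carried the genes of classical monocytes, and many also carried granule genes and transcripts of dividing cells. The name monocyte is used here for all cells that met the rule, early stages included. F13a1, a coagulation factor subunit made by these monocytes, was not used in the rule and had a UMI in 94.0% of them. Its pooled level was 1613 CPM, against 75.8 CPM in neutrophils and 8.58 CPM in T cells of the same libraries. Fn1, fibronectin, stood at 952 CPM, against 59.6 CPM in macrophages, and Ms4a6c at 940 CPM, against 30.6 CPM in neutrophils. Of the genes of the rule, Ly6c2 stood at 3132 CPM, Ccr2 at 443 CPM and Csf1r at 223 CPM. Among markers of other cells, the abundant neutrophil transcripts S100a8, S100a9 and Retnlg stood at 2728, 3013 and 254 CPM, against 122374, 141135 and 11840 CPM in the neutrophils. Ly6g was at 19.3 CPM, against 842 CPM in them. P2ry12, of microglia, was at 3.40 CPM, and Ace and Treml4, of non-classical monocytes, were at 1.88 and 4.56 CPM. Spn and Nr4a1, listed with them as markers, were more abundant. Spn had 14 to 615 UMIs per hashtag group and Nr4a1 0 to 621, against 0 to 21 for Treml4. Nr4a1 is also an immediate-early gene. The granule gene Prtn3, limited by the rule, still stood at 1920 CPM and had a UMI in 80.3% of the cells, against 9096 CPM in the precursors with 1% or more of azurophil granule UMIs and 2.65% of B cells with a UMI.

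Some signal of other cells remained and differed between hashtag groups. The summed level of the neutrophil marker list ranged from 43.4 to 60532 CPM over the 26 hashtag groups with at least 10 monocytes, with a median of 1471 CPM. For T and NK cell markers the range was 4.08 to 1045 CPM with 1 of 13 markers at 0, for B cell markers 81.6 to 654 CPM with 2 of 11 at 0, and for microglia and macrophage markers 131 to 350 CPM with 2 of 13 at 0. Levels of S100a8, an abundant neutrophil transcript, reached 21622 CPM in hashtag 5 of App NL-G-F acute colitis and 13876 CPM in hashtag 5 of WT food allergy. The part of free RNA and of doublets in these values was not tested.

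Cells just outside the rule resembled those just inside it on some edges and not on others. At the edge of Csf1r, 510 cells with 1 UMI were inside and 882 with none outside, and F13a1 was found in 90.4% and 43.8% of them. Mki67 was found in 56.1% and 30.6% of these cells, without thinning. At the edge of the granule genes, 298 cells with 0.5 to 1% of such UMIs were inside and 272 with 1 to 2% outside. F13a1 was found in 100% of the former and 99.6% of the latter, and Mki67 in 95.3% and 91.9%. The granule edge therefore ran through dividing cells that carried F13a1 on both sides. At the edge of Ly6c2 there were 72 cells inside and 107 outside, with F13a1 in 76.4% and 69.2% and Mki67 in 8.33% and 15.0%. At that of Ccr2 there were 152 and 246, with F13a1 in 85.5% and 29.3% and Mki67 in 57.9% and 21.1%.

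Cell-cycle genes and inflammatory genes recur in the comparisons below, and promoter sequences of both groups are shown for reference. Each is the 150 bases before the start of the RefSeq gene on GRCm38.p6, written 5′ to 3′ along the gene, in lower case with motifs in capitals. In the first 4, capitals mark CCAAT (or ATTGG on the other strand), a box bound by NF-Y, and TTTGAA (or TTCAAA), the core of the CHR element through which cell-cycle genes are repressed outside the late cell cycle. They are the 4 of 16 cell-cycle genes with a promoter entry that held both motifs. That of Mki67, a marker of dividing cells, lies at chr7:135716380-135716529 (minus strand) and that of Top2a, a topoisomerase, at chr11:99024190-99024339 (minus). That of Cdk1, the mitotic kinase, lies at chr10:69352913-69353062 (minus) and that of Hmgb2, a chromatin protein, at chr8:57511693-57511842 (plus).
Mki67: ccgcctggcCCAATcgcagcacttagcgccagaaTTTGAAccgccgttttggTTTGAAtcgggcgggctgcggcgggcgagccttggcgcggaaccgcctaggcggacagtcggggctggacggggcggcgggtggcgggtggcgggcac
Top2a: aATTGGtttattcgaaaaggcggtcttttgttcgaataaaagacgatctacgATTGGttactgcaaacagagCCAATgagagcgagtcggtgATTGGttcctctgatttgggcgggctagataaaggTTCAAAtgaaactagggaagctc
Cdk1: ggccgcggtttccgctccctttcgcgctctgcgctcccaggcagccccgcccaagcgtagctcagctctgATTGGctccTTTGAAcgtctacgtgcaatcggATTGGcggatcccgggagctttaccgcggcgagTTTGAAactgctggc
Hmgb2: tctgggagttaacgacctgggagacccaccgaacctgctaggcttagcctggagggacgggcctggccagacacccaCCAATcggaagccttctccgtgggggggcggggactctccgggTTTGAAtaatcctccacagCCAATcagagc

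In the next 2 promoters capitals mark TTGCNCAA on either strand, a sequence of the kind that C/EBP factors bind, with N standing for any base. Ptgs2, which encodes cyclooxygenase-2, lies at chr1:150099881-150100030 (plus) and Clec4e, the receptor Mincle, at chr6:123289872-123290021 (minus).
Ptgs2: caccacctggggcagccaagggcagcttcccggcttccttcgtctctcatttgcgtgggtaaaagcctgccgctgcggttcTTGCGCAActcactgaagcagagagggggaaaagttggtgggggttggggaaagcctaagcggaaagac
Clec4e: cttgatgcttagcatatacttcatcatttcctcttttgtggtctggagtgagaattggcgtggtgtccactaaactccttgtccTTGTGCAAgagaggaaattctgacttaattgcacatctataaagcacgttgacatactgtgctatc
Of all 32851 promoter entries, 24.5% held CCAAT, 9.07% TTTGAA, 2.24% both and 1.52% TTGCNCAA within these 150 bases on either strand. Counted by gene, as the lists are, the values over 27025 genes were 27.7%, 10.5%, 2.63% and 1.8%. Of the 16 cell-cycle genes, 13 held CCAAT (81.2%) and 5 TTTGAA (31.2%). The inflammatory list had 21 genes with an entry, of which Ptgs2, Clec4e and Il6 held TTGCNCAA (14.3%). The motifs do not overlap each other in the sequences shown. A match describes these letters and is not evidence of binding in these cells.

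Many of the gated monocytes carried transcripts of dividing cells. At an equal depth of 1000 UMIs per cell, which 1976 of them reached, 30.4% had a UMI of Mki67 or Top2a. The same share was 27.6% in the azurophil precursors, 14.9% in developing B cells, 6.39% in neutrophils, 3.38% in macrophages and 3.04% in T cells. These cells were chosen by other rules, so the shares are not matched for selection. The monocyte rule was applied before thinning, and at its Ccr2 and Csf1r edges Mki67 was more frequent inside than outside. At its Ly6c2 edge Mki67 was less frequent inside. Before thinning, 60.4% of the monocytes had such a UMI. In the low set 43.3% of monocytes were positive (95% exact binomial interval 38.9 to 47.7) and in the high set 26.0% (23.8 to 28.3).

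Monocytes with and without these UMIs differed in what else they carried, as pooled levels with no test. F13a1 was near even, at 1669 CPM with and 1430 CPM without them. Granule genes of the promyelocyte stage were high beside the cycling genes, with Ctsg, cathepsin G, at 585 CPM against 39.7 CPM and Ms4a3, a marker of granulocyte and monocyte progenitors, at 86.6 CPM against 4.76 CPM. Genes of later stages were high in the other cells, with Cd14 at 651 CPM against 90.2 CPM, Lyz2, lysozyme, at 21819 CPM against 8598 CPM and Cd74 at 4648 CPM against 364 CPM. The division is by detection in each cell, so deeper cells fall into the cycling class more often.

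Cycling varied between hashtag groups. In the high set of WT control it stood at 4.95% and 4.60%, and in its low-set group at 51.2%. App NL-G-F control had 27.4% and 19.1% in the high set. In the same set WT chronic colitis had 39.5% and 26.5%, WT acute colitis 20.0% and 18.5%, and WT food allergy 21.0% and 13%. In App NL-G-F mice, chronic colitis had 32.7% and 36.4%, food allergy 30.3% and 36.2% and acute colitis 17.4% and 9.68%. Thus both high-set groups of WT control lay below every other high-set group. The low set covered 20.0 to 59.1%. Across 7 libraries with both sets, the mean was 22.8% in the high set and 41.3% in the low set, and it was lower in the high set in every one (exact two-sided permutation test over libraries, p = 0.0156, the smallest this design allows; adjusted p = 0.0781 over 5 states). At 2000 UMIs it was higher in the high set in 1 of 7 (exact p = 0.0313, adjusted p = 0.117). The 35 tests of states between conditions had adjusted p-values of 1.0. With 4 hashtag groups against 4 the smallest raw p is 0.0286, and after adjustment over 35 tests no result of this design could have passed.

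**Figure D1:**
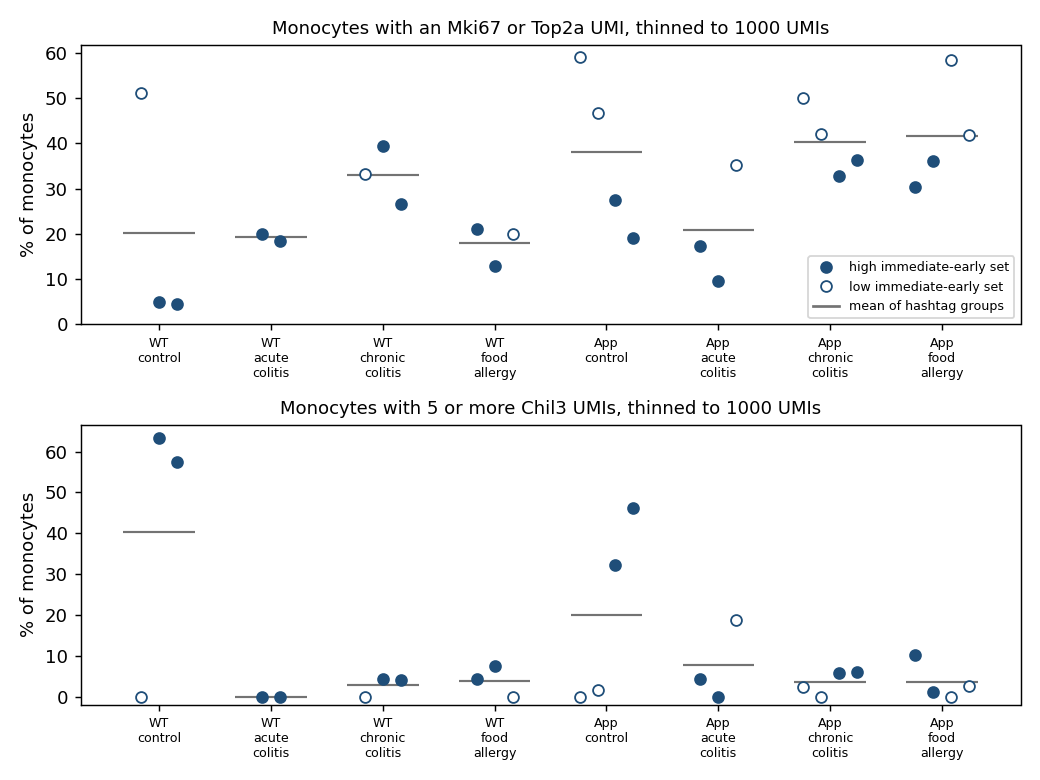
Share of classical monocytes per hashtag group with an Mki67 or Top2a UMI (top) and with 5 or more Chil3 UMIs (bottom), in percent of cells thinned to 1000 UMIs; filled points are the high and open points the low immediate-early set, and bars are means. The WT control high-set groups are lowest for cycling, at 4.95% and 4.60%, and highest for Chil3, at 63.4% and 57.5%.

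The share of classical monocytes among all barcodes overlapped between every treatment and its control. With 3 or 4 hashtag groups per condition and adjustment over 7 comparisons no difference could have passed, so the tests do not show that the shares were alike. By library it ran from 1.74% in WT acute colitis to 8.71% in WT chronic colitis, with 3.44% in WT control (exact binomial interval 3.02 to 3.90) and 4.39% in App NL-G-F control. In acute colitis the mean was below that of control in both genotypes. App NL-G-F acute colitis had 1.77%, 1.75% and 3.79% and App NL-G-F control 1.31%, 6.99%, 3.97% and 5.18% (mean 2.44% ± 1.17, SD, n = 3, against 4.36% ± 2.38, n = 4; exact permutation test, p = 0.343), and the ranges overlapped. WT acute colitis had 1.99%, 1.5% and 0 of 108 barcodes, which allows a share of up to 2.78%. WT control had 0.109%, 2.09%, 4.58% and 5.57% (1.16% ± 1.04, n = 3, against 3.09% ± 2.47, n = 4; exact p = 0.229).

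WT chronic colitis stood apart through 1 hashtag group. Hashtag 6 held 403 monocytes of 3340 barcodes, or 12.1%, and the other groups 3.11% and 3.12% (mean 6.1% ± 5.17, SD, n = 3; exact p = 0.457 against WT control). App NL-G-F chronic colitis was even, with 2.91%, 3.78%, 3.13% and 4.03%. Food allergy had 7.48%, 4.71% and 2.25% in WT and 6.28%, 5.71%, 1.13% and 3.42% in App NL-G-F mice. App NL-G-F control exceeded WT control by 1.27 percentage points (exact p = 0.486). All 7 adjusted p-values lay between 0.633 and 0.857, and the smallest p that 3 against 4 groups can give is 0.0571. Within libraries, the share was higher in the high set in 7 of 8 (mean 4.55% against 2.50%, a difference of 2.05 ± 2.34, SD; exact p = 0.0547). Fewer monocytes and more of the other cells give the same share and cannot be told apart.

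**Figure D2:**
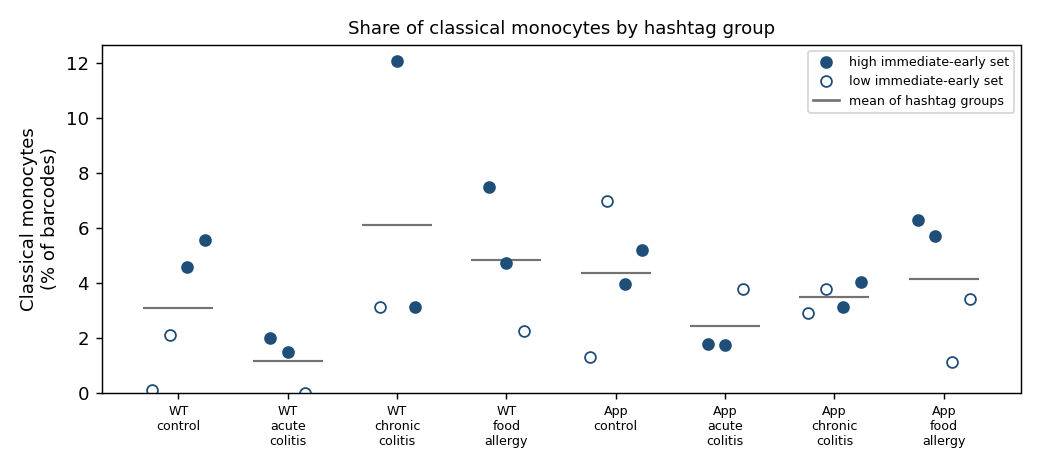
Classical monocytes in percent of barcodes for each hashtag group with at least 100 barcodes; filled points are the high and open points the low immediate-early set, and bars are means over hashtag groups. WT chronic colitis hashtag 6 lies highest, at 12.1%, and the ranges of every condition overlap with control.

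Across hashtag groups the monocyte share was set beside the shares of 5 other cell types, in each set, with p-values adjusted over 10 relations. All these shares have the same denominator, so they are not free of each other. The permutations took no account of the library, so the p-values treat hashtag groups of the same library as independent. The azurophil precursors are the cells across the granule edge of the monocyte rule itself, so their relation is a description only, with r = 0.767 and rho = 0.779 in the 16 groups of the high set. For neutrophils of the high set Spearman's rho was 0.741 (permutation adjusted p = 0.00640), while Pearson's r was 0.594 (adjusted p = 0.0692) and 0.837 without the 2 farthest. Neutrophils of the low set had rho = 0.785 (permutation adjusted p = 0.00900) and r = 0.478 (adjusted p = 0.310), or 0.690 without the 2 farthest. Macrophages went the other way in the high set, with r = -0.683 and rho = -0.700 (permutation adjusted p = 0.0133 and 0.00900; r = -0.595 without the 2 farthest, where the adjusted p was 0.0766), and not in the 12 groups of the low set (r = -0.0658). In the high set, the acute colitis groups of both genotypes had the largest shares of macrophages and the smallest of monocytes. The macrophage relation thus lay in part between libraries, and a relation within libraries was not tested. Developing B cells and T cells showed no relation that passed.

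Over all hashtag groups, the contrast with the most called genes lay within libraries, between the high and low sets. With the high set alone, WT chronic colitis against WT control had a larger share called, at 27.0% of 8593 genes. In the high set, genes of inflammation, antigen presentation and maturation were higher, and cell-cycle genes lower. At 1000 UMIs, 26.0% of high-set and 43.3% of low-set monocytes had a UMI of Mki67 or Top2a, so the contrast is between unlike mixes of cells. Over 8749 genes tested across 26 hashtag groups, 930 were higher (10.6%) and 634 lower (7.25%) in the high set (edgeR, adjusted p under 0.05), or 17.9% in all. Immediate-early genes are the basis of the sets in T cells, so their rise in monocytes (22 of 22 tested, median log2 fold 3.50) is a description. Atf3 spanned 49.7 to 418 CPM in the high set and 0 to 7.59 CPM in the low set, with no overlap.

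Cytokine and chemokine genes were higher in the high set. The list summed to 1025 to 5620 CPM (median 2313) in the high set and to 391 to 791 CPM (median 692) in the low set. Of 22 tested, 20 were higher and none lower (median log2 fold 2.35, against -0.00287 for all genes). Il1b, the secreted interleukin-1β, was 45.6 to 966 CPM (median 197) in the high set and 0 to 44.9 CPM (median 0) in the low set. Ccl2, the ligand of CCR2, was 20.8 to 190 CPM (median 93.7) against 0 to 9.56 CPM (log2 fold 4.66 ± 0.28, SE; edgeR adjusted p = 2.36e-12). Neither gene overlapped between the sets. Cxcl2, which attracts neutrophils, had 18.7 to 846 CPM against 0 to 15.0 CPM, and Ptgs2, whose promoter is shown above, 7.05 to 228 CPM against 0 to 1.59 CPM. Osm, oncostatin M, overlapped between the sets, with 19.9 to 347 CPM against 0 to 29.9 CPM.

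Genes of mature myeloid cells followed. The list of dendritic-like and MHC class II genes had 14 higher and none lower of 17 tested (median 2.17). Cd74, the invariant chain of MHC class II, was 273 to 14071 CPM (median 2027) in the high set and 15.0 to 714 CPM (median 133) in the low set (log2 fold 3.19 ± 0.56; edgeR adjusted p = 0.000213), with some overlap. Pattern receptors and phagocytosis had 20 higher of 27, among them Cd14, the co-receptor for lipopolysaccharide, at 79.1 to 1393 CPM against 9.44 to 74.8 CPM. Macrophage differentiation had 13 higher of 20. Among them Apoe, a lipid carrier and Alzheimer's risk gene, was 99.0 to 3274 CPM against 0 to 104 CPM (log2 fold 5.56), with slight overlap. Among classical identity genes 17 of 26 were higher and 1 lower, and of the type I interferon list 13 of 27 were higher and 1 lower. Neutrophil markers moved the same way, with 10 of 13 tested higher (median 2.70) and a summed level of 137 to 60532 CPM against 43.4 to 10611 CPM, and their part in the result was not tested.

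Cell-cycle genes moved together in the other direction. Of 18 tested, none was higher and 16 were lower in the high set (median log2 fold -0.62). Tubb5, a tubulin, was 403 to 1308 CPM (median 796) in the high set and 1237 to 1724 CPM (median 1435) in the low set (log2 fold -0.63 ± 0.11; edgeR adjusted p = 0.000352). For Mki67 the values were 70.4 to 510 CPM (median 285) and 299 to 627 CPM (median 462), with a log2 fold of -0.60 ± 0.18 (adjusted p = 0.0228). Top2a had a log2 fold of -0.64 ± 0.20 (adjusted p = 0.0232) and Hmgb2 of -0.36 ± 0.10 (adjusted p = 0.0104). Cdk1 did not pass, with -0.51 ± 0.19 (adjusted p = 0.0632). Tubb5, Mki67 and Top2a all overlapped between the sets. When monocytes with and without Mki67 or Top2a UMIs were fitted separately, 182 and 108 genes passed, against 1564 with all monocytes.

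Against App NL-G-F control, few genes passed in any treatment when all hashtag groups were used. Acute colitis had 1 gene higher and none lower of 8749 (0.0114%; 664 genes had an unadjusted p under 0.05). This was Asprv1, a protease gene of the neutrophil marker list, which was at 424 CPM in hashtag 5, at 26.3 CPM in hashtag 7 and at 0 in the other hashtag group of acute colitis and in all 4 of control. Chronic colitis had none higher and 4 lower (0.0457%; 393 at an unadjusted p under 0.05), among them the ribosomal protein gene Rps29 (log2 fold -0.57 ± 0.09; edgeR adjusted p = 0.00867). Food allergy had none higher and 1 lower (0.0114%; 441 at an unadjusted p under 0.05). With DESeq2 these counts were 15, 13 and 6. Of the 4 edgeR genes of chronic colitis, 3 (75.0%) had a longest annotated transcript under 600 bases, as had the 1 of food allergy. Of all genes tested 1.02% did. Rps29 was at 3082 to 3488 CPM in App NL-G-F control. It was at 2273 to 2537 CPM in acute colitis, 2064 to 2375 CPM in chronic colitis and 2402 to 2687 CPM in food allergy. Library and treatment cannot be told apart for it.

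The App NL-G-F counts depended on the sets and on single groups. When hashtag 7, the 1 low-set group fitted for App NL-G-F acute colitis, was left out, 30 genes passed there. With the high set alone, where each condition has 2 hashtag groups, acute colitis had 67 genes higher (0.78%) and 87 lower (1.01%) of 8593, or 1.79% in all. Chronic colitis had 62 (0.722%) and 181 (2.11%), or 2.83%, and food allergy 3 (0.0349%) and 15 (0.175%), or 0.209%. The levels behind these counts are described next, first for what distinguished the control libraries and then for acute colitis.

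In the high set, monocytes of both control libraries carried a group of genes that was low in each of the 3 treatments. Chil3, which encodes the chitinase-like protein Ym1 made by maturing monocytes and neutrophils, was at 3236 and 4229 CPM in App NL-G-F control and at 8423 and 6816 CPM in WT control. In the 12 treated hashtag groups it lay between 265 and 1098 CPM, with a median of 647 CPM. No treated group overlapped with control. The log2 fold of control over treatments was 2.45 ± 0.17 in App NL-G-F mice (edgeR adjusted p = 1.24e-07) and 3.70 ± 0.17 in WT mice (adjusted p = 6.36e-11). By cell, 32.3% and 46.1% of App NL-G-F control and 63.4% and 57.5% of WT control monocytes had 5 or more Chil3 UMIs at 1000 UMIs, against 0 to 10.1% in the treated groups of the high set.

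Saa3, a serum amyloid A protein of the acute-phase response, was at 329 and 986 CPM in App NL-G-F control, at 1634 and 2151 CPM in WT control and at 0 to 75.3 CPM (median 2.37) in treated groups. Vcan, the matrix proteoglycan versican, was at 228 and 280 CPM and at 345 and 373 CPM, against 3.98 to 140 CPM (median 43.9). Cd38, an NAD-consuming ectoenzyme, was at 35.2 and 68.1 CPM and at 90.8 and 119 CPM, against 0 to 23.4 CPM (median 3.55). None of these overlapped. The folds of Vcan were 2.80 ± 0.23 and 3.11 ± 0.21 on the log2 scale in App NL-G-F and WT mice (edgeR adjusted p = 1.22e-06 in the former). The receptor Mincle, Clec4e, was at 133 and 134 CPM and at 359 and 358 CPM, and its treated range of 14.2 to 142 CPM reached into that of App NL-G-F control. The same held for Thbs1, thrombospondin 1, with 140 and 282 CPM, 837 and 1545 CPM, and 14.2 to 160 CPM in treated groups.

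**Figure D3:**
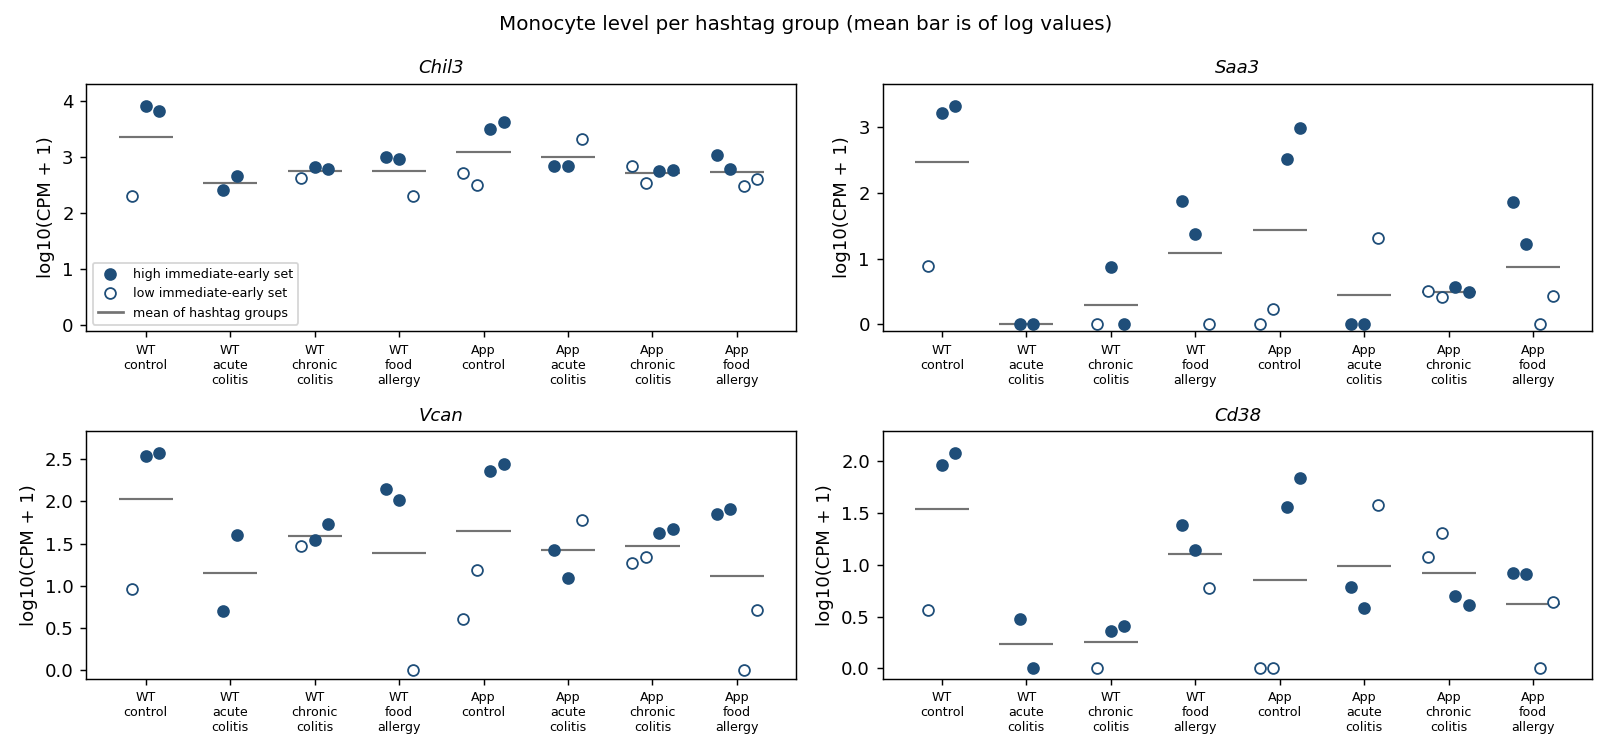
Levels of Chil3, Saa3, Vcan and Cd38 in monocytes of each hashtag group, as log10(CPM + 1); filled points are the high and open points the low immediate-early set, and bars are means of the log values. The 4 control high-set groups lie above the 12 treated high-set groups for all 4 genes, and the low-set control groups do not.

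By count, 158 genes were higher (1.84%) and 37 lower (0.431%) in App NL-G-F control than in the mean of its 3 treatments, or 2.27% of 8593. In WT control 891 were higher (10.4%) and 733 lower (8.53%), or 18.9%. These 2 contrasts share no library. Of the genes higher in control, 118 were in both lists, which is 74.7% of the App NL-G-F list and 13.2% of the WT list. Of those lower in control 22 were in both (59.5% and 3.0%), and 21 genes higher in App NL-G-F control were lower in WT control. Among 135 genes named in both, 40 had no overlap between the 4 control and 12 treated groups. These genes were selected on the same groups, and the share without overlap over all genes was not computed. The 40 are thus a description and no further support. This comparison was added after the values were seen. With all hashtag groups it gave 11 genes in App NL-G-F (0.126%) and 548 in WT mice (6.26%). Of the 10 higher in App NL-G-F control there, 5 had a longest transcript under 600 bases, against 1.02% of all tested. Without App NL-G-F control hashtag 7 the App NL-G-F count fell to 14, and without App NL-G-F chronic colitis hashtag 7 it was 103; without WT control hashtag 7 the WT count was 848 and without hashtag 6 it was 902.

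By gene list, of 26 classical identity genes, 9 were higher and none lower in App NL-G-F control, and 19 higher and 2 lower in WT control (median log2 fold 0.41 and 0.59, against 0.03 and -0.01 for all genes). Pattern receptors had 7 and 17 higher of 27 and none lower, among them Trem1, which amplifies inflammatory signals (50.5 to 182 CPM in control, 5.09 to 130 CPM in treated groups), Tlr2 (49.3 to 235 against 14.2 to 82.0 CPM) and the Fc receptor Fcgr4 (12.9 to 71.8 against 1.34 to 19.1 CPM). All 3 overlapped. Cytokines had 5 and 18 higher of 22 and none lower, with Cxcl2 at a log2 fold of 2.33 ± 0.53 in App NL-G-F mice (edgeR adjusted p = 0.0248) and 2.84 ± 0.43 in WT mice.

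Other genes called higher in both control libraries come from different lists or from none. Ctsl, the protease cathepsin L, was 113 to 488 CPM in control against 18.7 to 120 CPM in treated groups. F10, coagulation factor X, was 187 to 336 CPM against 35.8 to 174 CPM, Pla2g7, a phospholipase that degrades platelet-activating factor, 160 to 547 CPM against 17.9 to 111 CPM, and Gda, guanine deaminase, 365 to 715 CPM against 95.5 to 337 CPM. F10, Pla2g7 and Gda did not overlap and Ctsl did. Bst1, a relative of Cd38, had 51.7 to 126 CPM against 7.85 to 40.5 CPM.

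Of 25 genes of App processing and Alzheimer's risk, 4 were higher in App NL-G-F control, namely Abi3, Ms4a4a, Ms4a6d and Psen2, and 12 in WT control, with none lower in either. Psen2, a catalytic subunit of γ-secretase, was 36.4 to 84.6 CPM in control and 13.4 to 46.7 CPM in treated groups (log2 fold 1.26 ± 0.26 and 1.40 ± 0.21; edgeR adjusted p = 0.0103 in App NL-G-F mice). Abi3, an actin regulator, was 92.8 to 140 CPM and 17.4 to 72.7 CPM, without overlap. Lower in control were Spn, the sialomucin CD43, at 24.5 to 55.2 CPM against 56.2 to 115 CPM, without overlap (log2 fold -0.87 ± 0.18, adjusted p = 0.0128, and -1.51 ± 0.21), and the marrow retention receptor Cxcr4, at 33.3 to 64.6 CPM against 61.0 to 116 CPM, with overlap. Of the cell-cycle genes, 18 of 18 were lower in WT control (median -1.17) and none passed in App NL-G-F control (median -0.11), and the difference between the genotypes was not tested in this contrast.

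The pattern was not seen in the low set and was present in part in other cells. In the 3 low-set control groups Chil3 was 205 to 524 CPM and Saa3 0 to 6.74 CPM, while low-set hashtag 7 of App NL-G-F acute colitis had Chil3 at 2170 CPM, the highest treated value. Neutrophils of the same high-set groups had Chil3 at 3759 to 5574 CPM in control and 1854 to 4063 CPM in treated groups, Saa3 at 8.39 to 251 CPM against 0 to 18.2 CPM, and Vcan at 9.44 to 67.4 CPM against 0 to 4.75 CPM. In these neutrophils Thbs1 had a lower median in control (187 against 347 CPM) and Clec4e was near even (442 against 413 CPM). Macrophages had Saa3 at 19.2 to 148 CPM against 0 to 77.9 CPM. T cells had Saa3 at 0.633 to 43.0 CPM against 0 to 0.753 CPM, with slight overlap, and Chil3 at 0 to 510 CPM against 0 to 549 CPM. Among markers of other cells in the monocytes, the neutrophil list summed to 1331 to 19893 CPM in control and 137 to 60532 CPM in treated groups, and the B cell list to 81.6 to 126 CPM in control and 147 to 654 CPM in treated groups. The part of these in the result was not tested.

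In acute colitis, the monocytes of the high set carried more MHC class II and dendritic-type transcripts. Cd74 was at 14071 and 6845 CPM in App NL-G-F and at 8928 and 4520 CPM in WT acute colitis, against 273 to 4637 CPM in the other 12 high-set groups, so 3 of the 4 lay above all others. H2-Aa, an MHC class II chain, was at 4465 and 1868 CPM and at 2789 and 1334 CPM, against 72.4 to 1272 CPM, with no overlap. Cd209a, the lectin DC-SIGN of monocyte-derived dendritic cells, was at 681 and 253 CPM and at 374 and 89.9 CPM, against 14.5 to 130 CPM, so that 1 of the 4 overlapped. H2-DMb1, which helps load peptide on MHC class II, was at 828.9 and 364 CPM and at 524 and 288 CPM, against 71.5 to 241 CPM, again with no overlap. By cell, 47.8% and 25.8% of App NL-G-F and 40.0% and 22.2% of WT acute colitis monocytes had 3 or more class II UMIs at 1000 UMIs, against 1.74 to 18.5%.

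Tests of these differences differed with the groups used. With the high set alone, 7 of 17 genes of the list were higher in App NL-G-F acute colitis than in control and none lower (median log2 fold 2.70, against -0.03 for all genes), namely H2-DMb1, Cd209a, Mgl2, H2-DMa, Cd74, Ciita and Batf3. H2-DMb1 had a log2 fold of 2.57 ± 0.35 (edgeR adjusted p = 0.000842) and Cd209a of 3.52 ± 0.59 (adjusted p = 0.00460). In WT acute colitis 339 genes were higher (3.95%) and 447 lower (5.2%), or 9.15% in all. Of the list 3 of 17 were higher and none lower, namely Batf3, Irf4 and H2-DMb1 (1.08 ± 0.33; adjusted p = 0.0441). Over all hashtag groups none of the 17 passed in either genotype. H2-DMb1 then had a log2 fold of 1.84 ± 0.38 (adjusted p = 0.0718) and Cd74 of 3.0 ± 0.87 (adjusted p = 0.305) in App NL-G-F mice. Hashtag 7 (low set, 122 monocytes) of App NL-G-F acute colitis had Cd74 at 131 CPM, H2-Aa at 56.0 CPM and Cd209a at 7.71 CPM.

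These values rest on few cells, 23 and 31 in App NL-G-F and 50 and 27 in WT acute colitis. Markers of dendritic cells summed to 539 to 1327 CPM in the 4 acute colitis groups and to 197 to 565 CPM in the other high-set groups, and those of azurophil precursors to 1557 to 2335 CPM against 2621 to 5089 CPM. T and NK cell markers summed to 5.09 to 1045 CPM against 14.2 to 139 CPM. The microglia and macrophage list summed to 219 to 346 CPM (median 262) against 149 to 350 CPM (median 179). Macrophages made up 7.99 to 10.8% of barcodes in the 4 acute colitis groups and 1.2 to 6.89% in the other high-set groups, without overlap. They held Cd74 at 25576 CPM and Cd209a at 192 CPM. The part of dendritic cells and macrophages in the result was not tested.

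**Figure D4:**
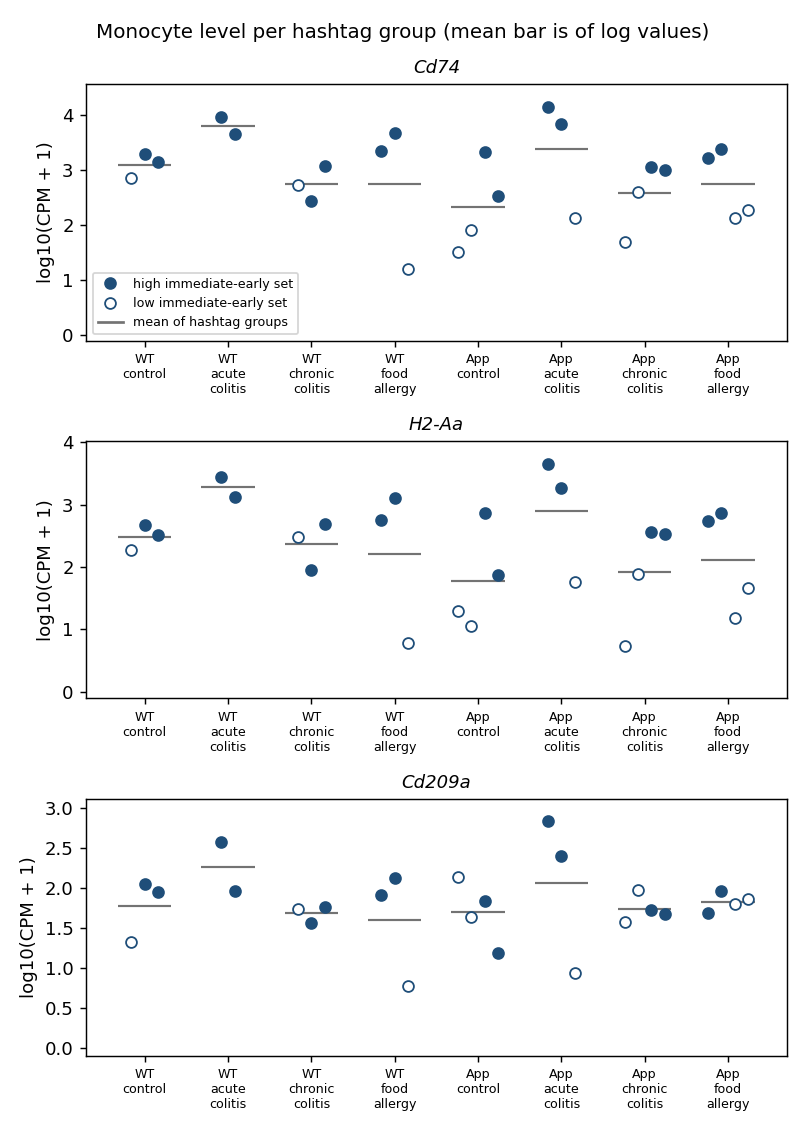
Levels of Cd74, H2-Aa and Cd209a in monocytes of each hashtag group, as log10(CPM + 1); filled points are the high and open points the low immediate-early set, and bars are means of the log values. The high-set groups of acute colitis lie above the other high-set groups for H2-Aa, and its low-set group in App NL-G-F mice does not.

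WT treatments differed from WT control in many more genes than App NL-G-F treatments did from theirs. Over all hashtag groups, acute colitis had 97 genes higher (1.11%) and 67 lower (0.766%), or 1.87% in all. Chronic colitis had 386 (4.41%) and 523 (5.98%), or 10.4%, and food allergy 72 (0.823%) and 13 (0.149%), or 0.972%. With the high set alone 27.0% and 8.15% of genes passed in the latter 2. In chronic colitis the inflammatory genes were lower than in control. Of 22 cytokine genes 17 were lower and none higher (median log2 fold -2.24, against -0.03 for all genes), of 27 pattern receptors 15 were lower, of 20 macrophage genes 11, and of 18 cell-cycle genes 6 were higher and none lower (median 0.87). Ptgs2 was 0 to 17.4 CPM in chronic colitis and 0 to 228 CPM in control (log2 fold -4.40 ± 0.41; edgeR adjusted p = 2.48e-08), the groups of each set being compared within the fit. Apoe was 4.08 to 137 CPM against 104 to 3274 CPM (-4.82 ± 0.63; adjusted p = 7.05e-06), with overlap.

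Thbs1 was lower in all 3 WT treatments, by a log2 fold of -4.51 ± 0.58 in acute colitis (edgeR adjusted p = 1.36e-05), -4.11 ± 0.51 in chronic colitis (3.69e-06) and -2.79 ± 0.47 in food allergy (0.000897). The 3 comparisons share the WT control groups. The 2 high-set groups of that library had Thbs1 at 837 and 1545 CPM, and the low-set group was at 0. Ptgs2 was lower in the same 3 comparisons, with -3.55 ± 0.47 in acute colitis (adjusted p = 2.06e-05) and -2.12 ± 0.34 in food allergy (0.000396). Without WT control hashtag 5, the low-set group, the counts rose to 454, 1807 and 539 for acute colitis, chronic colitis and food allergy; without WT acute colitis hashtag 4 the first fell to 49, and without WT chronic colitis hashtag 6 the second fell to 240.

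The genes that stood lowest in WT control included those of the shortest transcripts. Rps29, a ribosomal protein gene whose longest transcript is 461 bases, was at 527 to 560 CPM in monocytes of WT control, at 1242 to 1408 CPM in WT food allergy and at 2064 to 3557 CPM in the other 6 libraries, with no overlap between these 3 ranges. Its log2 fold against WT control was 2.63 ± 0.12 in acute colitis (edgeR adjusted p = 4.22e-14) and 1.25 ± 0.11 in food allergy (3.01e-08). Rpl38, of 457 bases, was at 287 to 295 CPM in WT control and at 763 to 2030 CPM in all others. Rps28, whose longest annotated transcript has 1443 bases, was also lowest in WT control, at 577 to 689 CPM against 1530 to 3689 CPM. The longest annotated transcript need not be the one expressed, and the length of the expressed transcripts was not measured. Whether the pattern reached beyond short transcripts was therefore not tested. Rpl13, whose longest transcript has 1969 bases, was even over the 8 libraries, at 4920 to 6299 CPM. In T cells Rps29 had the same order, with 774 to 842 CPM in WT control, 1810 to 1919 CPM in WT food allergy and 3049 to 4971 CPM elsewhere.

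**Figure D5:**
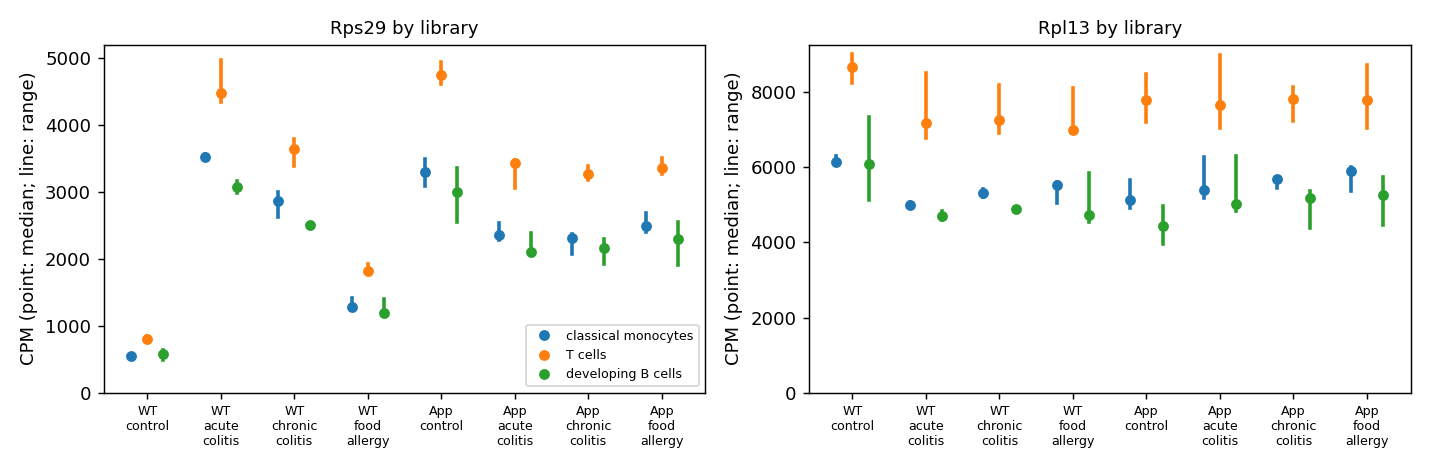
Levels of Rps29 (left) and Rpl13 (right) in CPM by library for monocytes, T cells and developing B cells; points are medians and lines the range over hashtag groups. Rps29 is lowest in WT control in all 3 cell types, at 527 to 560 CPM in monocytes, and Rpl13 is even.

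By length, genes higher than in WT control had a median longest transcript of 1129 bases in acute colitis, with 16.5% under 600 bases, and of 887 bases in food allergy, with 22.2% under 600. For all genes tested the median was 3293 bases and 1.02% were under 600. In chronic colitis the genes higher had a median of 2239 bases and 11.9% under 600. Since the level of short transcripts followed the library in cells of 3 kinds, library and treatment cannot be told apart for these genes.

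Between genotypes, over the 4 treatments, 176 genes were higher (2.01%) and 63 lower (0.72%) in App NL-G-F monocytes, or 2.73% in all. With the high set alone, 507 were higher (5.9%) and 328 lower (3.82%), or 9.72%. Among the lower ones Eno1, the glycolytic enzyme enolase, was 120 to 305 CPM in App NL-G-F and 261 to 608 CPM in WT hashtag groups (log2 fold -1.01 ± 0.10; edgeR adjusted p = 3.78e-07), with slight overlap. Gapdh was 570 to 1143 CPM against 1308 to 1805 CPM, with none (-0.78 ± 0.09). Of 18 glycolysis and hypoxia genes tested, Eno1 and Gapdh were lower and Pgam1, whose product acts beside enolase, higher (median 0.06), so the list did not move as a whole. Gclm, a subunit of the enzyme that limits glutathione synthesis, was 108 to 284 CPM against 32.4 to 133 CPM (1.02 ± 0.13). Dusp5, a phosphatase that acts on ERK, had a log2 fold of -1.38 ± 0.17 and the orphan receptor Nr4a1 of -1.07.

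Of the inflammatory list, Cxcl2 (log2 fold -1.55 ± 0.34; edgeR adjusted p = 0.00817), Osm, Nlrp3 and Ptgs2 were lower in App NL-G-F monocytes and none of 22 was higher. Of 25 genes of App processing and Alzheimer's risk, 1 was higher, Ide, which encodes the insulin- and amyloid-degrading enzyme (0.72 ± 0.15; adjusted p = 0.00691), and none lower. Rps29 was also higher (0.71 ± 0.05), and 15.3% of the genes higher had a longest transcript under 600 bases, against 1.02% of all tested. Without the control libraries, over the 3 treatments, the contrast gave 4 genes higher and 15 lower (0.217%). Eno1 (-1.07; adjusted p = 8.23e-06), Gapdh (-0.80; 0.000122), Ywhaq (-0.86), Dusp5 (-1.21) and Gclm (1.28) were among them. With 4 libraries per genotype and hashtag groups as the unit, these p-values cover the spread within libraries.

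With 1 library per condition, the differences of treated libraries from control were also compared between App NL-G-F and WT mice, through their interaction. It was called for 75 genes in acute colitis (0.857%), of which 16 were higher in App NL-G-F mice (0.183%) and 59 lower (0.674%). It was called for 173 in chronic colitis (1.98%), 38 higher (0.434%) and 135 lower (1.54%), and for 47 in food allergy (0.537%), all lower. Rps29 led each of them, and of the genes lower in food allergy 23.4% had a longest transcript under 600 bases. Of the cytokine genes, 4 of 22 were called higher in the chronic colitis interaction, namely Ptgs2, Ccl2, Nfkbia and Tnfsf9. Of the cell-cycle genes 1 of 18, Hmgb2, was called lower.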

How the data were processed

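Cell Ranger, in version 6.1.2 by the submitters' processing notes and in an earlier major version by the matrix headers, was run by the authors on mm10. The files the authors deposited give, for every droplet, unnormalized UMI counts of genes and of 4 hashtags, with empty droplets included. Receptor sequences were not used here.

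Barcodes with at least 500 gene UMIs, at least 200 genes, at most 5% mitochondrial UMIs, a top hashtag count of at least 50 and at least 3 times the second were kept. The ratio removed doublets of 2 hashtags, no doublet caller was run, and a stricter gate was an alternative. Monocyte UMIs were summed per hashtag group of at least 10 monocytes. Levels are CPM of all gene UMIs. The sums were tested in edgeR 4.0.16 (quasi-likelihood test, TMM, filterByExpr, condition and immediate-early set as terms, Benjamini-Hochberg over all genes, adjusted p 0.05; R 4.3.3, limma 3.58.1). Shares and states were compared by exact two-sided permutation tests over hashtag groups, with at least 100 barcodes for shares and at least 10 monocytes of 1000 UMIs for states, or over libraries for the sets, and correlations by 100000 permutations. Intervals are exact binomial at 95%, and like the limits from 3 counts they cover counting error only. States used cells thinned to 1000 UMIs. Named genes were the called genes in order of p, up to 12 in each direction, and every called member of the gene lists, leaving out the genes of the gate, receptor segments, sex-linked, mitochondrial and unnamed genes. The scripts were tested on simulated counts with 200 changed genes.

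The monocyte rule and the gene lists were chosen with earlier results of these data known. Control against the 3 treatments, monocytes with and without Mki67 or Top2a UMIs, and App NL-G-F against WT over the 3 treatments were chosen once the data had been seen. Alternatives were DESeq2 1.42.0, RLE scaling, other filters and gates, single sets, and leaving out each hashtag group. Promoters came from RefSeq on GRCm38.p6, of which 16 of 18 cell-cycle and 21 of 30 inflammatory genes were matched. The Python 3.11.15 packages were numpy (2.4.6), pandas (2.3.3), scipy (1.17.1) and matplotlib (3.10.9). A few genes counted in the lists are not reported here by name.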

Additional observations from a re-analysis of the deposited data

Results flagged for a closer look

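In 4 of 76 checks, the highest of 4 hashtag groups lay far from the others by the 95% limit of Dixon's test, which chance alone flags in about 1 of 20. In App NL-G-F control these were Cd74 at 2128 CPM, H2-Aa at 727 CPM and Eno1 at 305 CPM, each in hashtag 6. In App NL-G-F food allergy it was S100a8 at 6384 CPM, in hashtag 5.

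Differences of treated libraries from control were compared between App NL-G-F and WT mice by a test of the interaction (edgeR). With 1 library per condition, an effect of the library and a treatment effect that differs by genotype cannot be told apart. In acute colitis 75 genes passed. The log2 interaction, App NL-G-F minus WT, was -3.05 for Rps29, -2.85 for Rps28, 5.75 for C5ar1 and 1.88 for Gclm. Of these, C5ar1 was at 65.5 CPM (23 UMIs) in hashtag 5 of App NL-G-F acute colitis and at 0 in hashtag 4. It had 29 UMIs in hashtag 7, of the low set. In WT acute colitis it was at 3.6 to 3.98 CPM, from 1 and 2 UMIs. Hashtag 5 is the group named above for its high S100a8, and the part of neutrophil signal was not tested.

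In chronic colitis 173 genes passed, with -2.89 for Rps29, -2.66 for Rps28, 3.83 for Ptgs2, 2.48 for Dusp5 and 2.25 for Ppp1r15a. The last 3 had more UMIs in WT than in App NL-G-F control, in hashtags 6 and 7. Ptgs2 had 223 and 155 against 6 and 47, Dusp5 42 and 27 against 10 and 11, and Ppp1r15a 141 and 96 against 43 and 75. In food allergy 47 passed, with -1.66 for Rps29 and -1.69 for Rps28. Rps29 and Rps28 stood lowest in the WT control library, Rps28 at 577 to 689 CPM against 1530 to 3689 CPM in all others.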

How the results depend on the processing

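No paired analysis was possible because the conditions were separate libraries and no source says what a hashtag number has in common between them. The high set fell on the same numbers in both genotypes of a treatment, and the set is a term of the fit. Calls rest on 2 to 4 hashtag groups per condition, some with under 50 monocytes, and genes at a few UMIs per group could not be tested at this depth.

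No difference in share between conditions passed under any setting tried, and none could in the design as reported. Under a gate on thinned counts the difference became 0.00388 percentage points for App NL-G-F chronic colitis, 0.0661 for App NL-G-F food allergy and -0.0147 for App NL-G-F control against WT control. For App NL-G-F food allergy it was 0.120 with a hashtag ratio of 10 and 0.0531 with neutrophils left out of the denominator. The difference between the sets was 0.195 under the thinned gate (exact p = 0.0156) and 1.84 under the stricter gate (exact p = 0.0313). With 1 hashtag group left out it ran from 1.49 to 2.63. The ranges were -2.94 to -1.05 for App NL-G-F acute colitis, -1.91 to -0.0205 for chronic colitis, -1.25 to 0.773 for food allergy, 0.282 to 2.29 for App NL-G-F against WT control, and -2.92 to -1.10, 0.0277 to 4.51 and 0.393 to 3.0 for WT acute colitis, chronic colitis and food allergy; WT chronic colitis was at the lower value without hashtag 6.

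Counts of genes varied more. App NL-G-F acute colitis (1 gene) gave 15 with DESeq2, 7 with a lower filter, 3 with RLE, 154 in the high set, 1600 in the low set, 9 in cycling and 67 in other monocytes, and 0 with at least 20 monocytes, without the set or with the stricter gate. App NL-G-F chronic colitis (4) gave 13, 10, 243 and 170 with DESeq2, the lower filter, the high and the low set, 2 in cycling monocytes and 0 in the others, without the set or with the stricter gate. App NL-G-F food allergy (1) gave 6, 4, 18 and 41 in the same order and 0 in both kinds of monocytes, with at least 20 monocytes, without the set or with the stricter gate. WT acute colitis (164) gave 786 in the high set, 60 in cycling and 365 in other monocytes, 89 without the set and 88 with the stricter gate. WT chronic colitis (909) gave 2316 in the high set, 97 in the low set, 219 in cycling and 476 in other monocytes and 244 without the set. WT food allergy (85) gave 134 with DESeq2, 700 in the high set, 55 in cycling monocytes and 53 without the set. App NL-G-F against WT (239) gave 366 with DESeq2, 835 in the high set, 87 in cycling and 21 in other monocytes, 72 with the stricter gate and 19 over the 3 treatments. The set contrast (1564) gave 182 in cycling and 108 in other monocytes and 972 with the stricter gate. Fewer cells entered each of these subsets. In the low set App NL-G-F acute colitis, WT control, WT chronic colitis and WT food allergy had 1 hashtag group each, assumed to vary like the other groups, so their low-set counts rest on single groups.

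The acute colitis interaction (75) gave 169 with DESeq2, 155 in the high set, 47 without the set and 49 with the stricter gate, that of chronic colitis (173) gave 508 and 85 in the high and low sets, 56 in monocytes without cycling UMIs and 107 without the set, and that of food allergy (47) gave 90 with DESeq2, 71 in the high set, and 25 both in monocytes without cycling UMIs and with the stricter gate. Control against the 3 treatments, which called 195 genes in App NL-G-F and 1624 in WT mice, gave 11 and 548 in a separate fit with all hashtag groups and 117 and 682 in one of monocytes without cycling UMIs.

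With 1 hashtag group left out, counts ran from 0 to 30, 3 to 7 and 0 to 1 for App NL-G-F acute colitis, chronic colitis and food allergy, from 49 to 454, 240 to 1807 and 57 to 539 for those of WT mice, from 139 to 783 for App NL-G-F against WT and from 921 to 1711 for the sets. The interactions ran from 43 to 240, 109 to 708 and 36 to 104, and control against treatments from 14 to 204 and 848 to 1708. Leaving out WT control hashtag 5 gave the highest counts of the WT comparisons and of App NL-G-F against WT, and the lowest of the sets. The cause was not tested.

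For the correlations without the 2 farthest hashtag groups, r was 0.837 for neutrophils, -0.595 for macrophages and 0.206 for T cells in the high set and -0.0680 for developing B cells in the low set, where the last 2 changed sign. Of the genes named, Cd209a and Mgl2 in App NL-G-F acute colitis changed sign, to -3.01 and -1.48 in the low set, where 1 hashtag group stands for acute colitis, and -0.30 and -1.09 in cycling monocytes. Single genes stayed on their side of the threshold with their direction in 2020 of 2101 cases with a hashtag group left out, where 78 lost the call and 3 gained it. They did so in 78 of 78 with RLE, 77 with the lower filter, 73 with at least 20 monocytes and 71 with DESeq2. Calls were lost by 28 of 52 with all hashtag groups, 23 of 54 without the set, 22 of 78 in cycling and 23 of 73 in other monocytes, 11 of 77 with the stricter gate and 4 of 22 in the low set.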

Other observations

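Beyond the groups above, several gene lists had members called higher in the high than in the low set (edgeR, 8749 genes tested, 10.6% higher and 7.25% lower). Of 15 glucocorticoid-responsive genes 10 were higher in the high set and none lower (median log2 fold 1.12), among them Tsc22d3, which encodes the glucocorticoid-induced leucine zipper, and Per1, a clock gene. Of 13 genes of non-classical monocytes 7 were higher and 1, Spn, lower (median 1.2). Of 15 matrix proteases and inhibitors 8 were higher and none lower (median 1.1), with Mmp14 and Timp2 among them. Of 23 trafficking receptors and integrins 10 were higher and 1 lower (median 0.33), and of 12 genes of the interferon gamma response 4 were higher (median 0.49). In other lists few members passed. Heat-shock chaperones had 3 of 11 higher, Hspa1a, Hspa1b and Dnaja1 (median 0.22), NADPH oxidase genes 3 of 9 (median 0.21), and glycolysis and hypoxia 4 of 18 higher and 1 lower (median 0.06). The median summed levels of these lists were lower in the high set, at 7115 against 7601 CPM, 7069 against 7306 CPM and 5396 against 5553 CPM.

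In the control libraries of the high set, genes of neutrophil-like monocytes were among those above the 3 treatments. Of all 8593 genes, 1.84% were called higher in App NL-G-F control and 10.4% in WT control. Of 12 tested in the list, 5 were higher in App NL-G-F control (among them Chil3, Ms4a3, Wfdc21 and Mmp8; median 1.33). In WT control 3 were higher (Chil3, Mmp8 and Lcn2; median 0.93), and none was lower in either. Several of these are also neutrophil transcripts, and the neutrophil markers in these monocytes are given above.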
